A study of Homo sapiens with 4 samples.

Results

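The APOBEC3 genes encode cytidine deaminases, and 6 of them (APOBEC3B, APOBEC3C, APOBEC3D, APOBEC3F, APOBEC3G and APOBEC3H) are described here in myeloma cells with and without reduced ILF2. They were chosen by gene symbol as the members of a family known for its part in myeloma mutation, and they are 6 of 63677 genes in the count files. The cells were H929, an established human multiple myeloma line of malignant plasma cell origin. One group carried a non-silencing short hairpin RNA (shRNA) and the other shRNA against ILF2, whose product binds double-stranded RNA in complexes with related proteins. Each group held 2 libraries of total RNA, both made after removal of ribosomal RNA with strand kept. All 4 libraries thus come from 1 cell line that had been transduced, and the sources used here give neither the hairpin sequence, nor whether both libraries of the second group carried the same hairpin, nor the time after transduction. The submitters call the replicates independent without saying whether they were separate transductions, so the p-values below measure the spread between these libraries, which may be partly technical. The former group is called control and the latter knockdown below.

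APOBEC3 proteins remove the amino group from cytosine in single-stranded DNA and leave uracil behind. Uracil is cut out by base excision repair or read as thymine at the next replication, so the same chemistry that cripples retroviruses and mobile elements can also mutate the genome of the cell. In myeloma a mutational pattern of this kind is a known feature, most of all in tumours with translocations of the MAF genes. APOBEC3B is mostly nuclear and is among the enzymes held responsible for such mutations in tumours. APOBEC3D, APOBEC3F, APOBEC3G and some forms of APOBEC3H act against HIV when its Vif protein is missing, and APOBEC3C is a weaker enzyme against retroviruses.

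The members share a zinc-binding core in which a histidine and 2 cysteines hold the metal and a glutamate takes part in catalysis. A search of the coding sequence of the first coding transcript of each gene (GENCODE, GRCh37) for this pattern (H, any residue, E, 20 to 32 residues, PC, 2 to 4 residues, C) found 2 cores in APOBEC3B, APOBEC3D, APOBEC3F and APOBEC3G, and 1 core in APOBEC3C and APOBEC3H. The encoded proteins have 382, 386, 373, 384, 190 and 182 residues in that order. Every core lies within 1 coding exon, exon 3 or exon 6, on the plus strand. The sequences below show how alike the members are, because that decides which fragments could be assigned to 1 gene. They are given 5′ to 3′, and capitals mark the codons of the conserved histidine, glutamate, proline and 2 cysteines.

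APOBEC3B first core (chr22:39381838-39381942): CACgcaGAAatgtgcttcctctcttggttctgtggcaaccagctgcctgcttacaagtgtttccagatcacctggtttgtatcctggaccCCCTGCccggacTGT
APOBEC3B last core (chr22:39387370-39387480): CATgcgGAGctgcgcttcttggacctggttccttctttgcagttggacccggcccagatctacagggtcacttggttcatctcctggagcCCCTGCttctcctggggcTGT
APOBEC3C only core (chr22:39413792-39413896): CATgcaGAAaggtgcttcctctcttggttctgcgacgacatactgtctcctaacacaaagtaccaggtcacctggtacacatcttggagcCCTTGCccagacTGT
APOBEC3D last core (chr22:39427720-39427824): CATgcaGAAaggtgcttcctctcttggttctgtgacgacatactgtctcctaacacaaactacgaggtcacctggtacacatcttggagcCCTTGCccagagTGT
APOBEC3F last core (chr22:39448100-39448204): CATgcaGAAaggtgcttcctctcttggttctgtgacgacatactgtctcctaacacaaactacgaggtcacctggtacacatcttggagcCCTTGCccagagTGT
APOBEC3G last core (chr22:39482317-39482421): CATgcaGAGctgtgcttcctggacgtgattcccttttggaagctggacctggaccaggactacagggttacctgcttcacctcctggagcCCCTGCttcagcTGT
APOBEC3H only core (chr22:39497251-39497355): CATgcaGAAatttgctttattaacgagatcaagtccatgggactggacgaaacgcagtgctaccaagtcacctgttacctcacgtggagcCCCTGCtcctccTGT

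The last cores of APOBEC3D and APOBEC3F were identical over all 105 bases, and the only core of APOBEC3C differed from both by 4 bases. The first core of APOBEC3F was identical to the first core of APOBEC3B. The last core of APOBEC3G had 56.2% identity with that of APOBEC3F, and the core of APOBEC3H had at most 61.9% identity with any other core of its length. Such identity extends beyond the cores. Of all windows of 76 bases (the read length) within exons, 38.7% in APOBEC3B occurred again exactly on chromosome 22. The share was 16.0% in APOBEC3F, 10.9% in APOBEC3D, 9.94% in APOBEC3G and 1.11% in APOBEC3C, and no window of APOBEC3H was repeated. The sources used here do not state whether fragments from repeated windows were left out of the counts, though this is assumed. If so, the level of APOBEC3B would be the most understated. The windows stand for single reads, while a fragment can also be placed by its other read, so these shares may overstate the loss. The gene models of the files also overlap on the same strand. APOBEC3C and APOBEC3D share 17 exonic bases and APOBEC3F and APOBEC3G share 59, at most 1.82% of any of these genes.

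All 6 genes lie on GRCh37 chromosome 22, plus strand, in the order of their letters. With APOBEC3A at its left end, the cluster spans 39348746 to 39500072, or 151 kb. In the files APOBEC3B (ENSG00000179750) runs from 39378352 to 39388809 and APOBEC3C (ENSG00000244509) from 39410088 to 39416357. APOBEC3D (ENSG00000243811) runs from 39410368 to 39429281 and APOBEC3F (ENSG00000128394) from 39436609 to 39449915. APOBEC3G (ENSG00000239713) runs from 39436924 to 39483748, and APOBEC3H (ENSG00000100298) from 39493229 to 39500072. All exons of a gene, untranslated ones included, were counted together.

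The libraries held 63459322 to 72977082 counted fragments. ILF2, which checks the labels, stood at 717 and 733 CPM (counts scaled to library size, with TMM factors) in the control libraries and at 107 and 114 CPM in the knockdown. The mitochondrial share of fragments was 0.307% and 0.351% without and 0.463% and 0.516% in the knockdown, and its part in the results was not tested. Of the plasma cell markers, 9 of 11 had at least 113 CPM in every library, while the immunoglobulin genes IGKC and IGHA1 stayed at or below 3.37 CPM. Summed, the 11 markers went from between 12615 and 12922 CPM to between 14818 and 14939 CPM. Most of that rise came from JCHAIN, the most abundant of them, whose mean went from 5766 to 7638 CPM. Of them 5 were called higher (JCHAIN, MZB1, TNFRSF17, CD38 and IGHA1) and 2 lower (SDC1 and SLAMF7). Over all tested genes 10.2% were called higher and 10.1% lower. Among markers of other cell types, myeloid genes reached at most 0.624 CPM and stromal genes 0.153 CPM. The T cell list went from 7.53 to 8.30 CPM summed in the control to 16.2 to 17.2 CPM in the knockdown libraries, all but a trace from CD3E, and its other 4 measured genes stayed at or below 0.0785 CPM. The NK cell list summed to 134 to 140 CPM in the control and 118 to 119 CPM in the knockdown libraries, mostly from NCAM1, which myeloma cells often express and which was called lower. Its cytotoxic granule genes GNLY and PRF1 were called higher at a low level, GNLY from 0.889 to 2.29 CPM and PRF1 from 0.506 to 1.14 CPM. The part of these markers in the results was not tested. The mature B cell list summed to 2.26 to 2.55 CPM in the control and 2.90 to 2.96 CPM in the knockdown libraries, with CD22 at 0.

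APOBEC3G, APOBEC3B and APOBEC3D fell by 23.4%, 20.1% and 19.6% when ILF2 was reduced. The other 3 members did not pass the test: APOBEC3F had a log2 fold change of -0.23, APOBEC3C of 0.03 and APOBEC3H of 0.21. Thus 3 of 6 members were called lower and 0 higher by edgeR's quasi-likelihood test at an adjusted p under 0.05, where 10.1% of all 19142 tested genes were called lower and 10.2% higher. At an unadjusted p under 0.05 the counts were 4 lower and 1 higher, where 15.4% and 15.5% of all tested genes were lower and higher. DESeq2 called 3 lower and 0 higher, where it called 8.56% of genes lower and 9.20% higher. The median log2 fold change of the members was -0.27, against 0.00 over all tested genes. All 6 members passed the low-count filter. In bulk RNA a lower level in each cell and fewer cells with the transcript cannot be told apart.

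**Figure D1:**
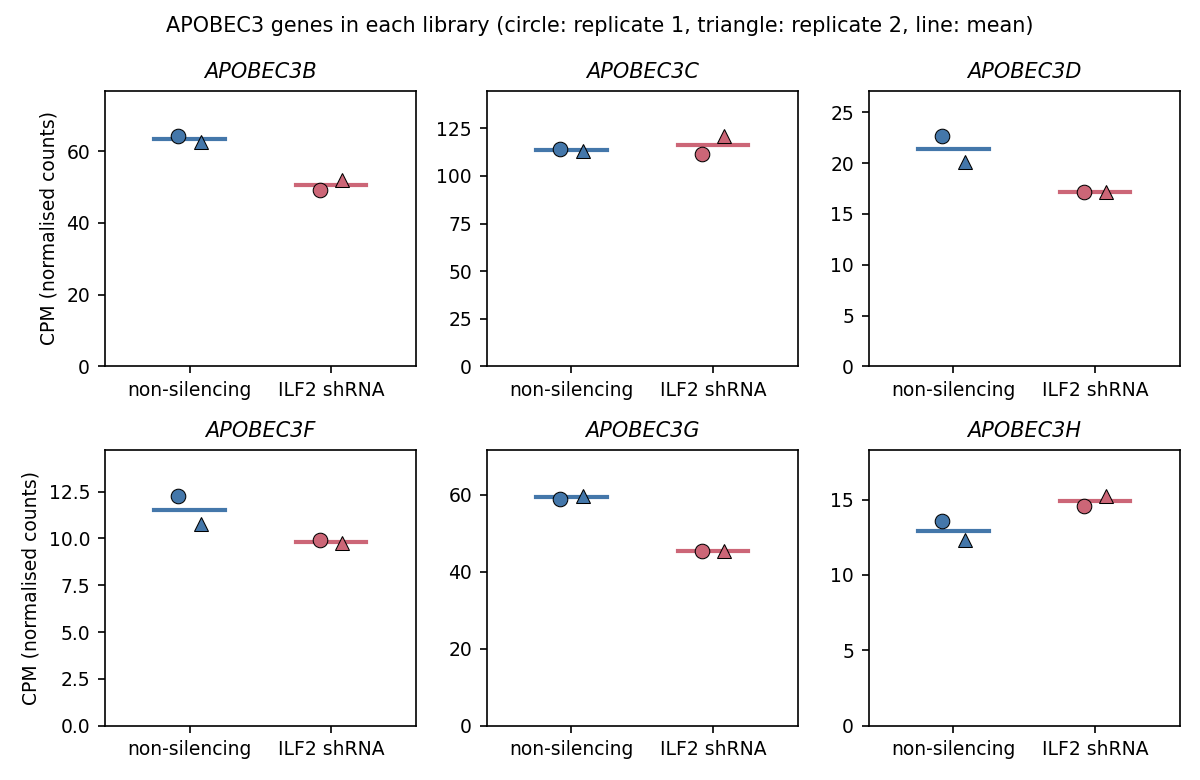
CPM of each APOBEC3 gene (vertical axis, from 0, with its own scale in each panel) in the 2 control and 2 knockdown libraries. Circles are replicate 1, triangles replicate 2 and lines the group means. In APOBEC3B, APOBEC3D, APOBEC3F and APOBEC3G both knockdown libraries lie below both control libraries, in APOBEC3H both lie above, and in APOBEC3C the groups overlap.

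APOBEC3G is the member best known for restricting HIV, into whose particles it is packaged. It had 4365 and 4306 fragments in the control libraries and 2897 and 3146 in the knockdown libraries. After scaling these were 58.9 and 59.8 CPM against 45.5 and 45.4 CPM. The replicates were very close in both groups and the groups did not overlap. Its log2 fold change was -0.38 (SE 0.07, with an edgeR adjusted p of 4.2e-05), and leaving out any 1 library moved it only between -0.40 and -0.37. Among all tested genes 11.4% had a log2 fold change as low or lower, so the fall was within the usual range of changes between these groups.

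APOBEC3B, the nuclear member linked to mutation in tumours, had 64.1 and 62.7 CPM in the control and 49.3 and 52.0 CPM in the knockdown libraries, from counts of 4748, 4517, 3139 and 3601. Both knockdown libraries were below both control libraries. The log2 fold change was -0.32 (SE 0.07, with an edgeR adjusted p of 0.0005), and it remained called without any 1 library (adjusted p from 0.00023 to 0.036). Its antisense neighbour APOBEC3B-AS1 had at most 1 fragment in a library.

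APOBEC3D, whose protein also acts against HIV, had 22.6 and 20.1 CPM in the control and 17.1 and 17.2 CPM in the knockdown libraries, from 1676, 1446, 1092 and 1189 fragments. The groups did not overlap, but the control replicates stood further apart than those of APOBEC3G. The log2 fold change was -0.32 (SE 0.09, with an edgeR adjusted p of 0.0046). Without control replicate 1 it was -0.23 and no longer passed. That fit keeps only 1 control library and has less power, so how far the call rests on the library left out was not tested.

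APOBEC3F, another inhibitor of HIV, was the least abundant member. Its levels were 12.3 and 10.8 CPM in the control and 9.92 and 9.74 CPM in the knockdown libraries, from 910, 775, 632 and 674 fragments. Again the knockdown libraries were the lower ones, by a narrow margin from control replicate 2. The log2 fold change was -0.23 (SE 0.10, with an edgeR adjusted p of 0.08), with a 95% interval of -0.42 to -0.04 that is not corrected for the number of genes tested. The log2 fold change was -0.13 without control replicate 1 and -0.32 without control replicate 2, so its size depends on which control library is kept. A GC and length correction added after seeing the data brought APOBEC3F past the threshold, at -0.24 (adjusted p in edgeR = 0.0152). That correction also raised the calls over all genes, from 1925 to 2847 lower and from 1960 to 3031 higher.

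APOBEC3C had the most fragments, with 114 and 113 CPM in the control and 111 and 121 CPM in the knockdown libraries, from 8459, 8145, 7094 and 8355 fragments. Its groups overlapped. The log2 fold change was 0.03 (SE 0.07, with an edgeR adjusted p of 0.82), and the 95% interval of -0.11 to 0.17 reaches up to a 1.12-fold higher level. APOBEC3H, a member whose common forms differ in protein stability, had 13.6 and 12.3 CPM in the control and 14.6 and 15.3 CPM in the knockdown libraries, from 1004, 888, 930 and 1056 fragments. Both knockdown libraries were above both control libraries, but the log2 fold change of 0.21 (SE 0.09, with an edgeR adjusted p of 0.0969) did not pass.

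**Figure D2:**
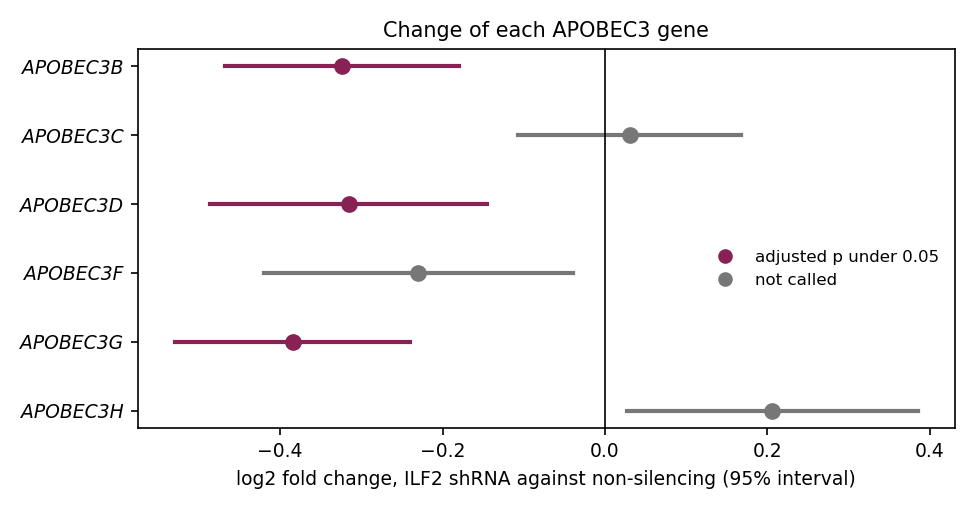
Log2 fold change of each APOBEC3 gene (horizontal axis, ILF2 shRNA against non-silencing shRNA) with its 95% interval from edgeR, not corrected for the number of genes. Coloured points are called at an adjusted p under 0.05 and grey points are not. APOBEC3B, APOBEC3D and APOBEC3G lie between -0.38 and -0.32, and APOBEC3C and APOBEC3H lie at 0.03 and 0.21.

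In CPM, 4 of 6 members had both knockdown libraries below both control libraries, as did 28.0% of all tested genes. In 1 of 6 both lay above, as in 28.5% of tested genes. Summed over the 6 members, the level was 282 ± 4.98 CPM in the control and 254 ± 8.97 CPM in the knockdown libraries (SD, n = 2). With 2 libraries against 2, an exact permutation test cannot reach a p under 0.05, and none was run on this sum.

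The members were also compared with each other, since ratios between genes within a library do not depend on the scaling. APOBEC3G had 4.35 and 4.85 fragments for each one of APOBEC3H, its neighbour on the chromosome, in the control libraries, and 3.12 and 2.98 in the knockdown libraries. APOBEC3B had 0.561 and 0.555 fragments for each one of APOBEC3C in the control libraries and 0.442 and 0.431 in the knockdown. Per fragment of APOBEC3H there were 4.73 and 5.09 of APOBEC3B, and 3.38 and 3.41 in the knockdown. The groups did not overlap in these 3 ratios. They did not overlap in 11 of the 15 pairs in all, among them APOBEC3D with APOBEC3F, APOBEC3F with APOBEC3G and APOBEC3C with APOBEC3H. For these last pairs the interval for the difference in log2 fold change, described below, included no difference. The share over pairs of other genes was not taken, and the 15 pairs reuse the same genes. Among single tested genes the groups did not overlap in 28.0% (lower) and 28.5% (higher). The count of 11 alone therefore does not show that the members diverged. The groups did overlap for APOBEC3B and APOBEC3G, with 1.09 and 1.05 fragments of the former for each one of the latter without, and 1.08 and 1.14 in the knockdown.

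The difference between 2 members' log2 fold changes was also taken for each of the 15 pairs, with its standard error from the 2 edgeR fits treated as independent. The 95% interval left out 0 in 8 pairs and held it in 7, with no correction for the number of pairs. The largest difference was that of APOBEC3G minus APOBEC3H, at -0.59 (interval -0.82 to -0.36), and the smallest of the 8 was that of APOBEC3C minus APOBEC3F, at 0.26 (0.02 to 0.50). Between APOBEC3B and APOBEC3D the difference was -0.01 (-0.23 to 0.21), and between APOBEC3F and APOBEC3G it was 0.15 (-0.08 to 0.39). APOBEC3C minus APOBEC3H was -0.18 (-0.40 to 0.05). These intervals are too wide to show that any of those pairs changed alike.

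Levels of different genes can be compared only per length. On the FPKM scale (CPM per kilobase of merged exons in the files), the control libraries had 40.5 and 40.1 for APOBEC3C and 33.8 and 33.1 for APOBEC3B. APOBEC3G followed with 10.7 and 10.9, APOBEC3H with 10.8 and 9.85, APOBEC3D with 8.89 and 7.88, and APOBEC3F with 3.79 and 3.32. APOBEC3G and APOBEC3H overlapped and could not be ordered, while all other neighbours in this order were separate in both libraries. In the knockdown, APOBEC3H at 11.7 and 12.2 FPKM stood above APOBEC3G at 8.27 in both libraries. The share of APOBEC3B in the family's summed FPKM was 31.1% and 31.5% without and 27.3% in both libraries in the knockdown, and that of APOBEC3C was 37.3% and 38.2% against 41.5% and 42.6%.

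The place of APOBEC3G in this order depends on the gene model. Its merged exons in the files span 5496 bases, whereas its first coding transcript in GENCODE has 1564. Taking that transcript's length for each gene, a choice made after seeing the data, the control means became 43.0 FPKM for APOBEC3C, 39.9 for APOBEC3B and 37.9 for APOBEC3G. APOBEC3H then had 12.4, APOBEC3D 8.49 and APOBEC3F 2.56 FPKM. The transcript of APOBEC3F has 4496 bases, more than its 3242 merged exon bases in the files, so its value may be understated here. Counting only the share of exon windows that are not repeated was another choice made after seeing the data. It gave 54.5 FPKM for APOBEC3B and 40.8 for APOBEC3C in the control libraries. The order of these 2 genes may therefore turn if repeated fragments were left out, though the windows take each read without its mate. In the knockdown the values on that scale were 43.5 and 41.6 FPKM.

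Other APOBEC genes were at or near 0. APOBEC3A, the neighbour of APOBEC3B and itself a strong mutator, had 5 and 1 fragments in the control libraries and 2 and 3 in the knockdown libraries, and 14.2% of its windows were repeated. APOBEC1, APOBEC2 and APOBEC4, more distant relatives, had 0 fragments in all 4 libraries. A count of 0 allows a level of up to 0.0405 to 0.0471 CPM (3 fragments in a library, counting error only). None of these 4 genes was tested.

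The genes around and within the cluster went both ways. From 500 kb before to 500 kb after it 29 other genes were tested, of which 4 were called higher and 4 lower, or 27.6%, against 20.3% of all tested genes. Their median log2 fold change was -0.01. The nearest tested protein-coding gene on each side encodes a Polycomb chromobox protein, and both rose. CBX6, on the left, had 254 and 244 CPM in controls and 306 and 324 CPM in knockdown libraries, and it rose by 0.34 on the log2 scale (SE 0.07, with an edgeR adjusted p of 8e-05). CBX7, on the right, had 12.8 and 11.8 CPM in controls and 16.6 and 18.9 CPM in knockdown libraries, and it rose by 0.53 (SE 0.09, with an edgeR adjusted p of 7.5e-06). The growth factor gene PDGFB had a log2 fold change of -1.66, the pentraxin receptor gene NPTXR of -1.04 and the meiotic recombinase gene DMC1 of -0.56. MGAT3, which encodes a glycosyltransferase, rose by 0.47 and the ribosomal protein gene RPL3 by 0.20 on the log2 scale. Among the fits that left out 1 library, the RPL3 call ended without control replicate 1, control replicate 2 or knockdown replicate 2. The remaining call lies inside the cluster, between APOBEC3G and APOBEC3H on the plus strand (39487591 to 39488860). It is the transcribed pseudogene ENSG00000225720, named here after its values were seen, with 1.11 and 0.944 CPM in controls and 0.722 and 0.535 CPM in knockdown libraries and a log2 fold change of -0.71 (adjusted p in edgeR = 0.0262).

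**Figure D3:**
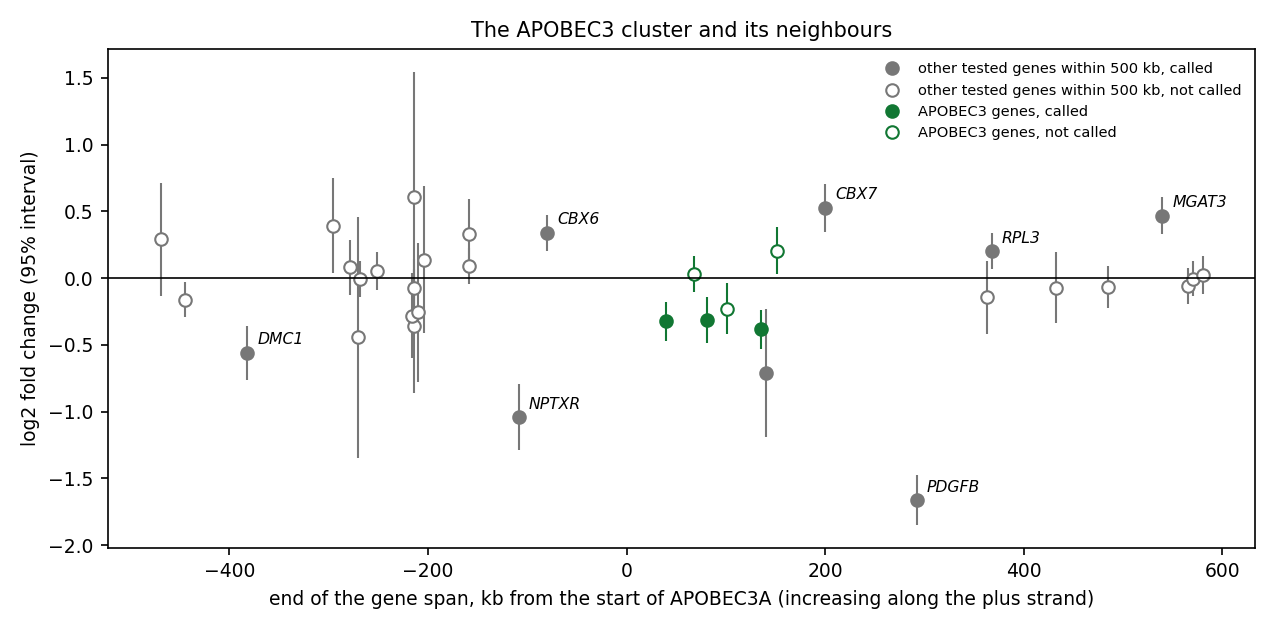
Log2 fold change with its 95% interval (vertical axis) of tested genes within 500 kb of the APOBEC3 cluster, by the end of each gene's span in kb from the start of APOBEC3A (horizontal axis). Green marks APOBEC3 genes and grey the 29 others, filled where called at an adjusted p under 0.05. The 3 called APOBEC3 genes lie below 0, while CBX6 and CBX7 on either side lie above it at 0.34 and 0.53.

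For each member the genes with the most similar course over the 4 libraries were sought among 10654 other protein-coding genes with an average of at least 1 log2 CPM. Likeness was the root mean square difference in log2 CPM after centring each gene, and with 4 libraries it rests on few points. Nearest to APOBEC3G were E2F8 (0.00591), a transcription factor gene, and GDAP1 (0.00645). Nearest to APOBEC3B were IL4R (0.00497) and TRAIP (0.00678), and nearest to APOBEC3D were C16orf74 (0.00922) and CHD3 (0.00994). APOBEC3F had FOXRED2 (0.0137) and RSKR (0.0166), APOBEC3C had AKAP1 (0.00513) and SLC5A6 (0.00585), and APOBEC3H had NINJ1 (0.00614) and APPL2 (0.0124). Within the family APOBEC3B and APOBEC3G were each other's nearest member at 0.045, as were APOBEC3D and APOBEC3F at 0.045 and APOBEC3C and APOBEC3H at 0.101. Many other genes were nearer than these: APOBEC3G ranked 195 in likeness to APOBEC3B.

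The uracil that these enzymes leave is handled by base excision repair. The list of 16 genes for handling uracil in DNA is wider than that pathway. Of these 16, edgeR called 4 lower and 1 higher, and the median log2 fold change was -0.05. Over all tested genes it called 10.1% lower and 10.2% higher, shares that stand beside both lists of this paragraph. The DNA ligase gene LIG1 had a log2 fold change of -0.42 (adjusted p in edgeR = 7.7e-06) and its relative LIG3 one of -0.27. DUT, whose product keeps uracil out of new DNA, had one of -0.20 (adjusted p in edgeR = 0.0431). Of these calls LIG1 held in every alternative run, and without control replicate 1 only 1 of the 16 was lower and 0 higher. Without control replicate 2 there were 2 and 0, and 0 rose without knockdown replicate 2. Of 12 genes for bypass of damaged bases 1 was higher and 2 lower, with a median of 0.01: the ubiquitin-conjugating enzyme gene UBE2B rose by 0.46, while the ubiquitin ligase gene SHPRH and the polymerase gene REV1 had -0.30 and -0.28. Only 1 was lower without control replicate 1 or knockdown replicate 2, and 0 without control replicate 2.

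Known regulators of APOBEC3 transcription went both ways, where 10.1% of all tested genes were called lower and 10.2% higher. Of 17 genes for NF-kB and protein kinase C, which raise APOBEC3B in other settings, 4 were higher and 1 lower, and the median log2 change was 0.09. NFKB2 rose by 0.41 (adjusted p in edgeR = 1.5e-05), the inhibitor gene TRAF3 by 0.36 and RELB by 0.33, and the kinase gene PRKCB fell by 0.65 (adjusted p in edgeR = 2.9e-08). Only 2 were higher without control replicate 2. Of 18 genes for the DREAM and PRC1.6 complexes, which hold down cell cycle genes and APOBEC3B, 5 were lower and 0 higher, with a median of 0.01. The pocket protein gene RBL1 had a log2 fold change of -0.54, MYBL2 of -0.47, FOXM1 of -0.34 and LIN9 of -0.34. MYBL2 and FOXM1 encode activators that replace the repressor on these genes. There were 3 lower without control replicate 2, and 2 higher without knockdown replicate 1. Of 17 genes for p53 and its targets 8 were higher and 0 lower, with a median of 0.19. CCNG1 rose by 0.85, TP53INP1 by 0.65, BTG2 by 0.44 and TNFRSF10B by 0.32.

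Several APOBEC3 genes respond to interferon. Of 23 tested genes of interferon signalling and response 6 were lower and 2 higher, and the median log2 change was 0.10. Over all tested genes 10.1% were called lower and 10.2% higher. The restriction factor gene MX2 had a log2 fold change of -1.75 (adjusted p in edgeR = 2.7e-19), and the antiviral synthetase gene OAS3 and its relative OASL had -0.78 and -0.52. The nuclease gene ISG20 rose by 0.37. With 1 library left out 4 to 7 were lower, and only 1 rose without control replicate 2. Among 12 tested genes for other restriction factors, a list that also holds MX2, 2 were lower and 1 higher, with a median of 0.04. The membrane protein gene IFITM1 had a log2 fold change of -0.83 at a low level, from 1.55 ± 0.212 to 0.865 ± 0.247 CPM (SD, n = 2), and SERINC5, which blocks HIV entry, rose by 0.36. Both of those calls ended without knockdown replicate 1, that of IFITM1 also without control replicate 1, and that of SERINC5 also without control replicate 2.

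None of 7 genes for the host ubiquitin ligase that Vif recruits against APOBEC3 proteins was called by edgeR or DESeq2, and none had an unadjusted p under 0.05 (0 genes). Their log2 fold changes ran from -0.06 to 0.13, with ELOB at 0.10 and ARIH2 at 0.10. MAF, whose translocation marks the myelomas richest in APOBEC mutation, had 112 ± 9.90 CPM in the control and 136 ± 3.67 CPM in the knockdown libraries (SD, n = 2). Its log2 fold change was 0.28 (SE 0.07, with an edgeR adjusted p of 0.0024), and without the second control library this no longer passed. FGFR3, a receptor gene of the 4p16.3 translocation, rose by 1.18. The list of 5 held 2 higher and 0 lower genes with a median of 0.28. Over all tested genes 10.2% were called higher and 10.1% lower.

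**Figure D4:**
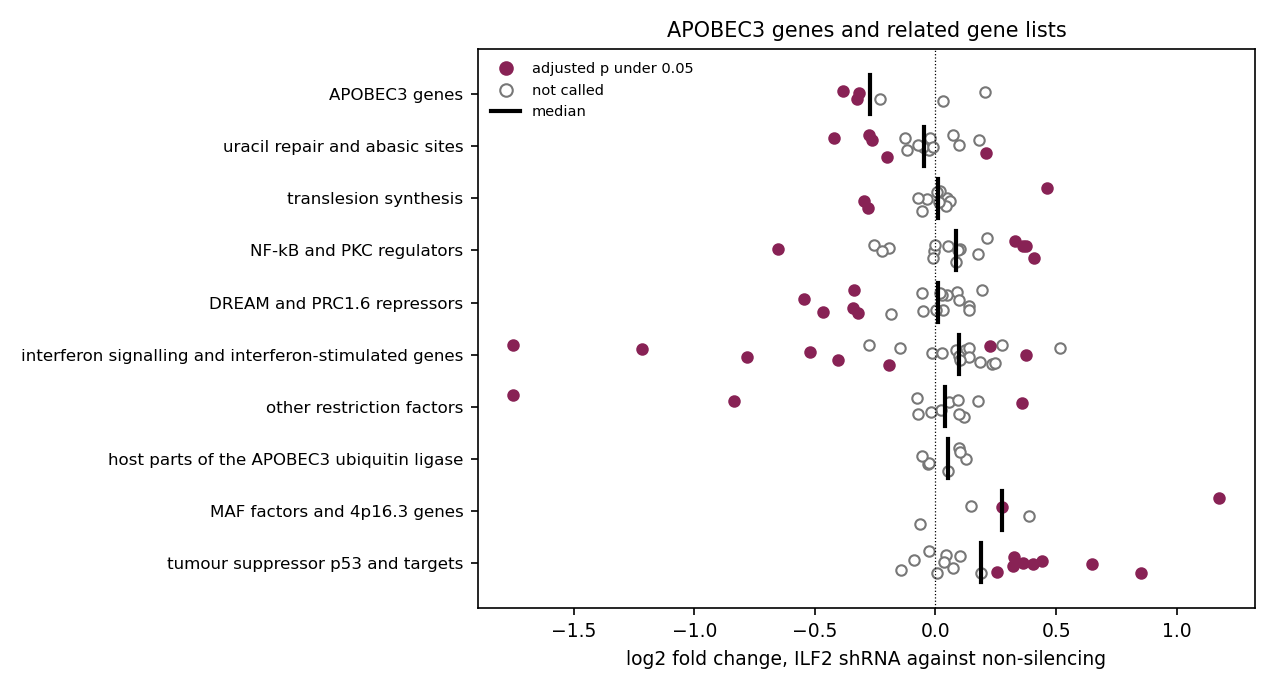
Log2 fold change (horizontal axis) of each tested gene in the APOBEC3 family and 9 related lists (rows), filled where called at an adjusted p under 0.05, with black bars at the medians. The family's median is -0.27, and the medians of the other lists run from -0.05 to 0.28.

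The promoter of 1 member, APOBEC3H, was present in the RefSeq promoter table (GRCh38.p14, a window around the gene's start). On both strands it held no exact E2F site (TTTCCCGC or TTTGGCGC), cell cycle homology element (TTTGAA or TTCGAA) or GAS element (TTCNNNGAA). It also held no exact interferon response core (GAAANNGAAA) and no NF-kB consensus. Near matches were not sought. Of 35116 promoters of that length, 15.2% held TTTGAA, 7.66% the GAS letters, 5.91% the NF-kB consensus and 3.57% the interferon response core. TTTCCCGC was held by 1.63%, TTCGAA by 1.45% and TTTGGCGC by 0.652%. Most promoters thus lack each of these motifs.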

How the data were processed

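Per the file headers, the authors ran Subread 1.4.6-p2 (featureCounts) and deposited its unnormalized counts of fragments (paired fragments, reverse strand, exons summed by gene, Ensembl GRCh37.75). The headers record no option for fragments with several places or genes, and exclusion of both kinds is assumed. STAR 2.3.0 and SAMtools 0.1.19 are named in the submitters' processing notes, while the design text names Tophat2. The exon length per gene (Length) is the deposited value of the same program.

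Groups and replicate numbers came from the sample titles. Symbols were matched by Ensembl ID for 55665 of 63677 genes. Counts were fitted in edgeR 4.0.16 (R 4.3.3) with TMM, filterByExpr at a minimum count of 10, robust dispersions and the two-sided quasi-likelihood test, group as the only term, with Benjamini-Hochberg adjustment over 19142 genes. Calls required an adjusted p under 0.05. The biological coefficient of variation was 5.38%, and the fit has 2 residual degrees of freedom, so it leans on the spread shared across genes. SE was taken from the F statistic. The procedure was tested on simulated counts. The replicates were distinct libraries: chi-square over genes was 8.21 (non-silencing) and 16.5 (ILF2 shRNA) per gene, above sampling noise.

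Alternatives were DESeq2 1.42.0, limma-voom (limma 3.58.1), other scalings and filters, abundant small and mitochondrial RNAs left out, a replicate block, and each library left out. A crossed block, a GC and length correction (mgcv 1.9.3) and other gene lengths were added after seeing the data. The crossed block put control replicate 1 with knockdown replicate 2 and control replicate 2 with knockdown replicate 1. The members and lists were chosen with earlier results of these data known. Genes named are the members, other APOBEC genes, up to 4 called genes of each list with the smallest adjusted p (or the 2 most abundant per length), called neighbours of at least 1 log2 CPM, and the 2 genes most like each member. Results for some genes that this rule selects are not reported here.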

Additional observations from a re-analysis of the deposited data

How the results depend on the processing

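APOBEC3B and APOBEC3G were called lower in all 14 alternatives, with log2 fold changes from -0.36 to -0.28 and from -0.40 to -0.37. APOBEC3D was called in 13, with values from -0.40 to -0.23; the exception was -0.2269 (edgeR adjusted p = 0.222) without non-silencing replicate 1. APOBEC3F ran from -0.32 to -0.13 and was called in 2, both added after seeing the data: -0.2286 with the crossed block (edgeR adjusted p = 0.0251) and -0.2412 after the GC and length correction (edgeR adjusted p = 0.0152). APOBEC3H ran from 0.14 to 0.28 and was called only with the crossed block, at 0.2065 (edgeR adjusted p = 0.0225). Thus 1 member was then higher. Over all genes the crossed block called 2871 higher and 2857 lower, against 1960 and 1925 without a block. That block joins the libraries that tended to deviate alike, so its extra calls are not separate support. APOBEC3C was called in none and ran from -0.0294 (edgeR adjusted p = 0.865) without ILF2 shRNA replicate 2 to 0.0903 without ILF2 shRNA replicate 1.

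Same-numbered libraries deviated in opposite directions (r = -0.266 across 13737 genes), so the numbers give no pairing. With the replicate block 1291 genes were higher over all genes, against 1960 without it, and the calls of APOBEC3B, APOBEC3D and APOBEC3G remained, while those of RPL3 (edgeR adjusted p = 0.125), DUT (0.193) and REV1 (0.072) ended. After the GC and length correction 3031 genes were higher and 2847 lower, and of the listed genes 30 were higher and 26 lower. With 1 library left out, the genes called over all genes ran from 1029 to 1899 higher and from 1070 to 1822 lower, and the distinct listed genes from 11 to 19 higher and from 11 to 19 lower. Of 34 other called genes selected by the naming rule, 22 kept their call in every alternative and 0 turned direction. The cause of these changes was not tested. Genes under the low-count filter, APOBEC3A among them, were not tested.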
